A study of Mus musculus with 12 samples.

Results

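The first day of culture with GM-CSF and IL-4 was followed in wild-type (WT) mouse monocytes by comparing 2 libraries of monocytes taken straight after sorting with 2 libraries of monocytes kept for 1 day with the cytokine pair. These 4 libraries, chosen by their titles, are part of 12 in the study. The cells came from the bone marrow of mice on a C57BL/6 background. The other 8 libraries are the same cultures on day 2 and the 3 stages from mice without Nr4a3 (KO), an orphan nuclear receptor gene whose part in this differentiation is the question named by the study's title. No allele or treatment beyond the cytokines is given for the WT groups, and the sorted cells received no cytokine. The labels do not give the number of animals behind a library. No library was cultured without the cytokines. The cytokines, the culture itself and the time since sorting therefore cannot be told apart. The members of a group came from separate experiments, so the spread within a group includes that between experiments. The p-values rest on this spread as estimated over all 12 libraries, not over the 4 compared libraries alone. The main fit did not pair libraries by experiment. For replicate 2 of day 1 the names of the deposited files give 16 hours of culture where the title gives 1 day.

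Poly(A) RNA was sequenced, and reads counted in genes numbered 12961706 and 10687668 for WT monocytes replicates 1 and 2, and 11996973 and 12185629 for WT day 1. Levels are in CPM, counts per 1000000 of the library size after TMM scaling, and are printed for replicate 1 first and replicate 2 second. CPM compares libraries and does not correct for gene length, so levels of different genes are not set against each other. Fold changes are log2 values of day 1 over monocytes ± SE, tested with edgeR's quasi-likelihood test. That test gives no SE, so it was worked back as the absolute log2 fold change over the square root of the F statistic. A gene is said to have risen or fallen where the Benjamini-Hochberg adjusted p over all 14034 genes tested was under 0.05. In bulk RNA, fewer cells of a type and less RNA per cell cannot be told apart.

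GM-CSF binds a receptor made of its own alpha chain (Csf2ra) and the beta chain shared with IL-3 and IL-5 (Csf2rb), and signals through the kinase JAK2 to STAT5, whose targets include the feedback inhibitors CISH and SOCS. IL-4 binds its receptor chain (Il4ra) paired with the common gamma chain (Il2rg) or with Il13ra1, and signals mainly through STAT6. Monocytes given both cytokines leave the bloodstream state, spread, and over several days become cells that present antigen on MHC class II, while IL-4 also drives the genes of alternatively activated macrophages.

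The sorted cells carried the transcripts of bone marrow monocytes. The 10 monocyte markers fixed for this check summed to 25660.0 and 54700.0 CPM in monocytes and 6762 and 10470.0 CPM on day 1, and Lyz2, the macrophage and monocyte lysozyme, was at 17162 and 43582 CPM in monocytes and 3139 and 6619 CPM on day 1 (adjusted p = 0.0782, and 0.0034 with the experiment as a block). Lyz2 made up most of the monocyte marker sum in both monocyte libraries. The 10 dendritic cell markers summed to 214 and 275 CPM in monocytes and 12980.0 and 9774 CPM on day 1. Most of this sum on day 1 was MHC class II genes, described below, with Cd74 alone at 6183 and 4295 CPM. Of the 10 markers 70% rose and 10% fell, beside 11.4% and 10.1% of all genes tested, and the fall was that of Flt3. Markers of some other cells were lower on day 1. The erythroid list summed to 73.6 and 178 CPM in monocytes and 2.06 and 3.84 CPM on day 1, the B cell list to 402 and 528 CPM in monocytes and 19.3 and 27.3 CPM on day 1, nearly all of it Ighm, and the progenitor list to 472 and 573 CPM in monocytes and 35.02 and 29.5 CPM on day 1. Neutrophil markers summed to 1628 and 4847 CPM in monocytes and 1223 and 2240.0 CPM on day 1, with groups that overlapped, and T and NK cell markers to 3.06 and 8.86 CPM in monocytes and 0.826 and 1.71 CPM on day 1. Their part in the results was not tested. WT monocytes replicate 2 had the fewest genes detected of the 4 libraries, 12987 against 14481 in replicate 1. Ribosomal protein genes took 8.93% of its reads against 4.18% in replicate 1, and on WT day 1 they took 7.42% in replicate 2 against 4.67% in replicate 1. Across the genes tested, the Spearman correlation between replicates was 0.937 in WT monocytes and 0.971 on WT day 1. Nr4a3 itself was at 0.307 and 0 CPM in monocytes and 16.5 and 10.4 CPM on day 1 in WT cells and at 0.928 and 0 CPM in KO monocytes and 6.58 and 0 CPM in KO day 1.

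After 1 day, 1598 genes had risen (11.4% of those tested) and 1424 had fallen (10.1%). These shares are the background for counts of list members in the main fit. Fits with a library left out or with a block called other totals of genes, given below. Counts of list members from those fits therefore have other backgrounds. Of the genes called in the main fit, 807 rose and 713 fell at least 4-fold, and 439 rose and 226 fell at least 16-fold. All 3022 had the same direction in both same-numbered pairs, as did 72.4% of all genes tested. The median log2 fold change over all genes tested was 0.06. Genes that rose took 5.63% and 4.37% of the reads in monocytes and 21.9% and 20.7% on day 1. Genes that fell took 22.5% and 22.7% in monocytes and 6.26% and 6.17% on day 1. The 4 fits that each left out 1 WT library kept 586 of the rises and 406 of the falls past the threshold every time, and no call changed sign. Without WT monocytes replicate 2 the counts were 1017 higher and 1238 lower, and without WT monocytes replicate 1 they were 2342 and 1539. They were 804 and 594 without WT day 1 replicate 1, and 846 and 607 without WT day 1 replicate 2. Such a fit has 1 library in a group, which is assumed to vary like the other groups. Where a value is given without either library, the one and then the other was left out, never both.

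**Figure D1:**
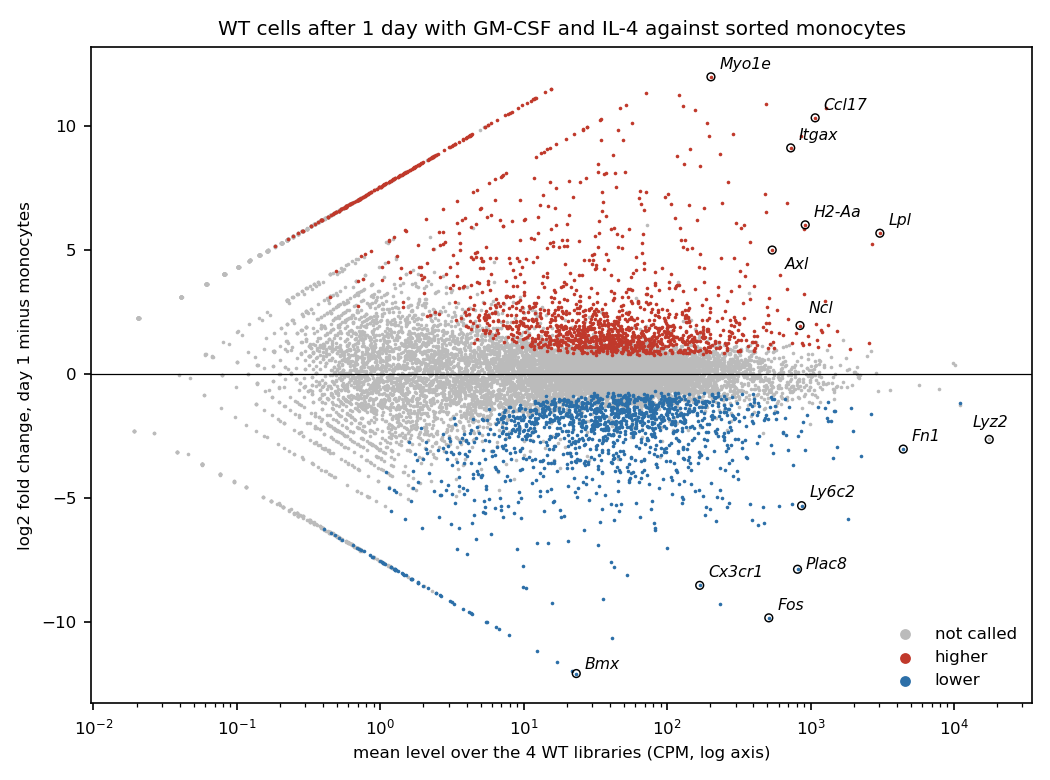
Log2 fold change of WT day 1 over WT monocytes (vertical axis) against the mean level over the 4 libraries (horizontal axis, CPM on a log scale), 1 point a gene for the 14034 genes tested. Red points are the 1598 genes that rose, blue points the 1424 that fell and grey points the rest, and labelled genes are described in the text.

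**Figure D2:**
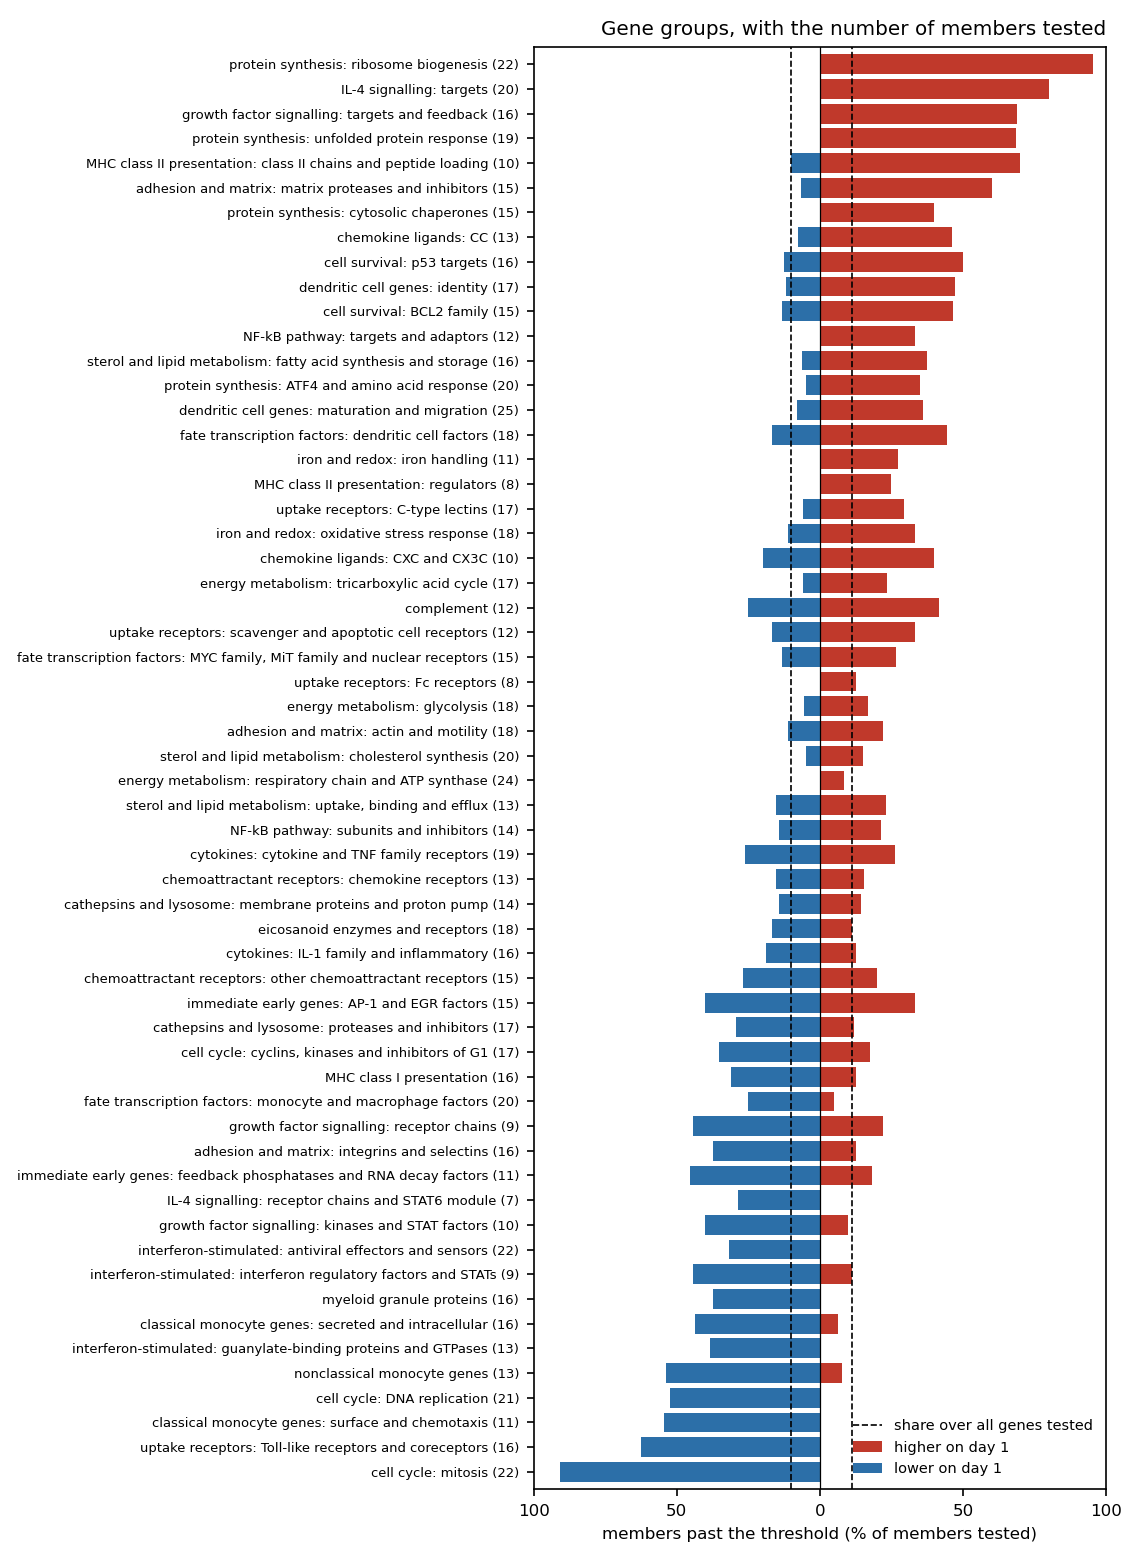
Percent of tested members of each gene group that rose (red) and fell (blue) on day 1, with the number tested in brackets. Dashed lines mark the shares over all genes tested, 11.4% higher and 10.1% lower.

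The genes with the largest rises were close to silent in the sorted cells. Myo1e, a long-tailed class I myosin of actin-rich adhesions (ENSMUSG00000032220.9, chromosome 9, 70207350 to 70399766, forward strand), was at 0.0766 and 0.105 CPM in monocytes and 489 and 319.7 CPM on day 1, a ratio of 4547 (95% interval 1258 to 37550.0) with an adjusted p of 6.49e-05. Retnla, a secreted product of IL-4-treated macrophages, was at 0 and 0.105 CPM in monocytes and 99.8 and 186 CPM on day 1 (ratio 3220.0 (95% interval 578 to 127200.0)). Arg1, the arginase of the same state, was at 0 and 0.105 CPM in monocytes and 49.2 and 156 CPM on day 1 (ratio 2319 (95% interval 416 to 91640.0)). Both were detected by 1 read in the monocyte group. Mmp12, the macrophage elastase, rose from 0.153 and 0.949 CPM to 631 and 1330.5 CPM (log2 fold change 10.88 ± 0.99, adjusted p = 0.000138). Sema6d, a membrane semaphorin, was at 0.0766 and 0.105 CPM in monocytes and 257 and 228 CPM on day 1 (ratio 2732 (95% interval 756 to 22560.0)). Of the 15 genes with the largest rises, 10 had no read in either monocyte library, so that only a lower bound on the fold can be given, taken against 3 reads over the group. Cxcl3, a neutrophil-attracting chemokine, was at 14.5 and 47.7 CPM on day 1, at least 234-fold higher. The kinase gene Alpk2 was at 31.5 and 30.2 CPM, at least 232-fold higher. Fcrlb, an Fc receptor-like gene, was at 32.3 and 24.5 CPM, at least 213-fold higher. Fscn1 missed the threshold with the experiment as a block (adjusted p = 0.0755). For the calcium sensor gene Ncs1, the p53 target Phlda3, the actin-bundling fascin gene Fscn1, the zinc finger gene Zfp366 (which encodes DC-SCRIPT of dendritic cells) and the IL-33 receptor gene Il1rl1, the bounds were 180.0, 177, 175, 158 and 147. Dmwd and Flrt3 were at least 182-fold and 169-fold higher. Calls that ended when 1 library was left out were those of Retnla, Arg1 and Dmwd without either monocyte library (adjusted p up to 0.0773), Fscn1 without either monocyte library or either day 1 library (adjusted p up to 0.138) and Il1rl1 without monocyte replicate 2 (adjusted p up to 0.0545).

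The largest falls included genes of red cells, of patrolling monocytes and of the immediate early response. Fos, an AP-1 subunit (ENSMUSG00000021250.13, chromosome 12, 85473890 to 85477273, forward strand), was at 1583 and 462 CPM in monocytes and 1.404 and 0.816 CPM on day 1 (log2 fold change -9.83 ± 1.21, adjusted p = 0.000627). Fosb had 75.02 and 11.9 CPM in monocytes and no read on day 1, at least 394-fold lower. Nr4a1, the nuclear receptor that nonclassical monocytes depend on, was at 825 and 111 CPM in monocytes and 0.496 and 0.979 CPM on day 1 (log2 fold change -9.29 ± 1.13, adjusted p = 0.000611). In all 3, monocyte replicate 1 was several times above replicate 2, and both were far above day 1. Ace, angiotensin-converting enzyme, had 40.2 and 27.9 CPM and then no read, at least 285-fold lower. Cx3cr1, the fractalkine receptor, was at 412 and 261 CPM in monocytes and 1.24 and 0.571 CPM on day 1 (log2 fold change -8.52 ± 1.66, adjusted p = 0.00567). Hpgd, which breaks down prostaglandins, was at 59.5 and 105 CPM in monocytes and 0 and 0.0816 CPM on day 1, a day 1 to monocyte ratio of 0.000522 (95% interval 1.32e-05 to 0.00292). The kinase gene Bmx had 40.8 and 52.2 CPM and then no read (at least 371-fold lower). The phosphodiesterase gene Pde7b and the Wnt agonist gene Rspo1 also had no read on day 1, at least 89.4-fold and 94.5-fold lower, as did the crystallin gene Cryba4 (at least 101-fold). The sterol hydroxylase gene Cyp39a1 was at 24.3 and 38.4 CPM in monocytes and 0.0826 and 0 CPM on day 1 (ratio 0.00136 (95% interval 3.43e-05 to 0.00759)). The globin genes Hba-a1 and Hbb-bt were at least 193-fold and 119-fold lower and Hbb-bs had a ratio of 0.00187 (95% interval 0.000384 to 0.00546), in the same libraries as the erythroid sums above. Globin genes, and the interferon-induced Ifit3b (ratio 0.00218 (95% interval 5.51e-05 to 0.0122)) beside Ifit3, have near-identical copies, so their counts are uncertain. With 1 library left out, calls ended for Cx3cr1 without either day 1 library (adjusted p up to 0.0647) and Pde7b and Ifit3 without monocyte replicate 2 or either day 1 library (adjusted p up to 0.111).

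Among the chains of myeloid growth factor receptors, the beta chains used by GM-CSF and IL-3 rose, and 4 other chains fell, the alpha chain of the IL-3 receptor among them. Of the 9 chains tested, 2 rose and 4 fell, beside 11.4% and 10.1% of all genes. The 4 falls were 2 without monocyte replicate 1 or either day 1 library. Csf2rb (ENSMUSG00000071713.4, chromosome 15, 78325752 to 78353847, forward strand) was at 391 and 190.5 CPM in monocytes and 2578 and 1874 CPM on day 1 (log2 fold change 2.94 ± 0.48, adjusted p = 0.00235). Its neighbour Csf2rb2, the beta chain specific to IL-3 in mice, was at 61.0 and 37.3 CPM in monocytes and 657 and 509.6 CPM on day 1 (log2 fold change 3.57 ± 0.56, adjusted p = 0.00207), and reads of the 2 similar genes may be split unevenly. Csf2ra was at 490.1 and 133 CPM in monocytes and 437 and 357 CPM on day 1, with groups that overlapped (log2 fold change 0.35 ± 0.52, adjusted p = 0.68). Flt3, the receptor of the dendritic cell growth factor FLT3 ligand, fell from 13.6 and 21.8 CPM to 0 and 0.979 CPM (log2 fold change -5.14 ± 1.07, adjusted p = 0.00817). Il3ra, the IL-3 alpha chain, fell from 72.1 and 81.4 CPM to 24.4 and 14.2 CPM (log2 fold change -1.99 ± 0.34, adjusted p = 0.00296), and Csf3r, the G-CSF receptor, fell by 2.58 ± 0.63 on the log2 scale. Csf1r, the receptor of M-CSF that maintains monocytes, was at 1177 and 853 CPM in monocytes and 1281 and 834 CPM on day 1 (adjusted p = 0.953), with groups that overlapped. Without 1 of the libraries the threshold was missed by Csf3r without monocyte replicate 1 or either day 1 library (adjusted p up to 0.118).

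Downstream, Jak2 rose and Stat5b fell. Jak2 (ENSMUSG00000024789.12, chromosome 19, 29251828 to 29313080, forward strand) was at 128 and 88.4 CPM in monocytes and 963 and 871 CPM on day 1 (log2 fold change 3.08 ± 0.39, adjusted p = 0.000699). Stat5b fell from 203 and 149.8 CPM to 75.2 and 59.98 CPM (log2 fold change -1.39 ± 0.31, adjusted p = 0.0109), and Stat5a was at 91.2 and 58.5 CPM in monocytes and 88.3 and 67.3 CPM on day 1 (adjusted p = 0.928). The SRC-family kinase gene Lyn fell (log2 fold change -1.17 ± 0.25, adjusted p = 0.00874). Of the 16 targets and feedback genes tested, 11 rose and none fell, with a median log2 fold change of 4.36 against 0.06 over all genes. Socs2 was at 0.153 and 0.105 CPM in monocytes and 79.3 and 119 CPM on day 1, a ratio of 744 (95% interval 254 to 3609) (adjusted p = 9.88e-05). Socs1 was at 1.69 and 3.69 CPM in monocytes and 158 and 109 CPM on day 1 (log2 fold change 5.65 ± 0.57, adjusted p = 0.000233). Both encode inhibitors of JAK-STAT signalling, and Cish, the STAT5-induced member of the family, rose by 9.69 ± 0.63 on the log2 scale. Socs3, better known as a target of STAT3, rose less (log2 fold change 3.304 ± 0.86, adjusted p = 0.0212). Ccnd2, a D-type cyclin, rose from 1.23 and 0.527 CPM to 35.8 and 42.8 CPM, and Pim3, a survival kinase, from 30.2 and 18.1 to 105 and 92.6 CPM. Dcstamp, needed for the fusion of macrophages, was at 0 and 0.105 CPM in monocytes and 33.7 and 105 CPM on day 1 (ratio 1567 (95% interval 281 to 61940.0)). The count of 11 targets was 7 without monocyte replicate 2 or day 1 replicate 2. The threshold was missed, with 1 library left out, by Stat5b without day 1 replicate 2 (adjusted p up to 0.0854), Lyn without either day 1 library (adjusted p up to 0.0575) and Socs3 without either monocyte library or either day 1 library (adjusted p up to 0.154). Missing the threshold with 1 library left out were Ccnd2 without either monocyte library or day 1 replicate 2 (adjusted p up to 0.127) and Pim3 without monocyte replicate 2 or either day 1 library (adjusted p up to 0.0912).

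In the main fit no chain of the IL-4 receptor rose, while most of the listed IL-4 targets did. Il4ra was higher on day 1 in both pairs and passed with the experiment as a block. Of the 7 genes of the receptor and STAT6 module, none rose and 2 fell. Il4ra was at 84.4 and 115 CPM in monocytes and 193 and 178 CPM on day 1 (adjusted p = 0.0622, and 0.0325 with the experiment as a block), Il2rg at 22.9 and 22.1 CPM in monocytes and 38.4 and 46.5 CPM on day 1 (adjusted p = 0.143) and Stat6 at 385 and 330.0 CPM in monocytes and 248 and 211 CPM on day 1 (adjusted p = 0.1). Il13ra1, the chain of the type II receptor, fell (log2 fold change -2.24 ± 0.51, adjusted p = 0.0115), as did the phosphatase gene Ptpn6 (log2 fold change -1.32 ± 0.42, adjusted p = 0.0462). Of the 20 IL-4 target genes tested, 16 rose and none fell, with a median log2 fold change of 5.91. In fits without 1 library, calls were lost for Il13ra1 without monocyte replicate 2 or either day 1 library (adjusted p up to 0.0899) and Ptpn6 without either monocyte library or either day 1 library (adjusted p up to 0.217). The list was written with earlier results of these data known, so this count is no independent evidence of its direction.

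The IL-4 targets that rose included lectins, chemokines and a checkpoint ligand, beside Retnla and Arg1 described above. Mgl2, a galactose-type lectin of dermal dendritic cells and macrophages (CD301b), was at 2.61 and 1.79 CPM in monocytes and 2153 and 1279.5 CPM on day 1 (log2 fold change 9.59 ± 1.10, adjusted p = 0.000447). Mrc1, the mannose receptor, was at 17.01 and 16.8 CPM in monocytes and 245 and 132 CPM on day 1 (log2 fold change 3.48 ± 0.51, adjusted p = 0.00136). Pdcd1lg2, which encodes PD-L2, was at 0 and 0.105 CPM in monocytes and 68.8 and 118 CPM on day 1, a ratio of 2102 (95% interval 377 to 83050.0) (adjusted p = 2.77e-05). The chemokine gene Ccl17 rose from 1.07 and 2.32 CPM to 1411 and 2895 CPM (log2 fold change 10.33 ± 1.39, adjusted p = 0.000938) and Ccl22, which binds the same receptor CCR4, from 1.303 and 1.37 CPM to 159.6 and 222 CPM (log2 fold change 7.15 ± 0.74, adjusted p = 0.000282). Every day 1 library was far above both monocyte libraries in these genes. Ccl24, an eotaxin, was at 0.536 and 1.48 CPM in monocytes and 288 and 639 CPM on day 1 (log2 fold change 8.89 ± 2.04, adjusted p = 0.0125). Cd209a, a mouse counterpart of DC-SIGN, was at 10.7 and 16.7 CPM in monocytes and 122 and 79.98 CPM on day 1, and its rise only just passed (log2 fold change 2.88 ± 0.93, adjusted p = 0.0489, and adjusted p = 0.0534 with RLE scaling). The E-cadherin gene Cdh1 was at 0.996 and 0.422 CPM in monocytes and 437 and 89.03 CPM on day 1, nearly 5-fold apart between the day 1 libraries (log2 fold change 8.46 ± 1.65, adjusted p = 0.00582). Alox15, a lipoxygenase, rose from 0.4598 and 1.37 CPM to 91.9 and 56.6 CPM. The count of 16 was 9 without monocyte replicate 1 and 8 without monocyte replicate 2. Lost when 1 library was left out were the calls of Retnla, Arg1 and Ccl24 without either monocyte library (adjusted p up to 0.0921), Cd209a without either monocyte library or either day 1 library or KO day 1 replicate 1 (adjusted p up to 0.194) and Cdh1 without monocyte replicate 2 (adjusted p up to 0.0751). Calls that ended when 1 library was left out were those of Alox15 without either monocyte library or either day 1 library (adjusted p up to 0.139).

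The promoter of Ccl17 is shown because the gene belongs to both cytokine lists. It is read 5′ to 3′ on the forward strand at chr8:94810283-94810373 (GRCm38.p6, RefSeq). Capitals mark matches to TTC and GAA with 3 letters between them, as STAT5 binds, and with 4 letters between them, as STAT6 binds, searched on both strands. The sets of letters can overlap.
Ccl17: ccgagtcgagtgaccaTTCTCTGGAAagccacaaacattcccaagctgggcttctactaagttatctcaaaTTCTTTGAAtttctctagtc
Over all 32851 promoters in the RefSeq-derived table, which cover 250 bases before to 50 after a start, 8.3% held the first motif and 6.95% the second. A match is a run of letters and not a shown binding site. Here and below, the table includes promoters of genes not tested, while only tested members of a list are counted.

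Transcription factors of the monocyte state and of dendritic cells moved in both directions. Of 20 monocyte and macrophage factors tested, 1 rose (5%) and 5 fell (25%), beside 11.4% and 10.1% of all genes. Irf8, which monocyte progenitors and cDC1 need, was at 560.2 and 484 CPM in monocytes and 12.3 and 16.2 CPM on day 1 (log2 fold change -5.19 ± 1.07, adjusted p = 0.00751). Klf2, a factor of quiescence and trafficking, was at 185 and 121 CPM in monocytes and 4.46 and 4.41 CPM on day 1 (log2 fold change -5.104 ± 0.72, adjusted p = 0.00116). Klf4, which Ly6C-high monocytes need, was at 603 and 160.1 CPM in monocytes and 94.8 and 42.03 CPM on day 1 (log2 fold change -2.48 ± 0.67, adjusted p = 0.0242), and Cebpd fell too (log2 fold change -2.53 ± 0.43, adjusted p = 0.00305). Spi1, the lineage factor PU.1, was at 415 and 429.7 CPM in monocytes and 589 and 492 CPM on day 1 (adjusted p = 0.331). The count of 5 falls was 3 without either day 1 library and 8 with the experiment as a block. Of 18 dendritic cell factors, 8 rose (5 without monocyte replicate 2) and 3 fell. Irf4, which monocyte-derived dendritic cells and cDC2 depend on (ENSMUSG00000021356.9, chromosome 13, 30749226 to 30766976, forward strand), was at 50.04 and 34.2 CPM in monocytes and 760.3 and 552 CPM on day 1 (log2 fold change 3.96 ± 0.55, adjusted p = 0.00104). Zbtb46, the zinc finger gene that marks classical dendritic cells, was at 0.383 and 0.211 CPM in monocytes and 35.1 and 30.1 CPM on day 1 (log2 fold change 6.68 ± 0.93, adjusted p = 0.00109). Etv3, Runx3 and Id2 rose by 2.51 ± 0.53, 2.59 ± 0.49 and 1.92 ± 0.34 on the log2 scale. Bcl11a, a factor of plasmacytoid and progenitor cells, fell from 40.5 and 15.7 CPM to 1.32 and 0.816 CPM (log2 fold change -4.71 ± 0.65, adjusted p = 0.00106). In the same libraries, then, Irf8 fell while Irf4 rose. With 1 library left out, calls ended for Irf8 without either day 1 library (adjusted p up to 0.07) and Klf4 without monocyte replicate 1 or either day 1 library (adjusted p up to 0.156).

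Among the factors of growth and activation, Myc, the driver of ribosome production, was at 10.3 and 3.59 CPM in monocytes and 159 and 104 CPM on day 1 (log2 fold change 4.22 ± 0.52, adjusted p = 0.000657). Bhlhe40, a repressor needed for macrophage proliferation, was at 6.59 and 5.69 CPM in monocytes and 276 and 243 CPM on day 1 (log2 fold change 5.395 ± 0.36, adjusted p = 2.77e-05). Vdr, the vitamin D receptor, was at 5.52 and 6.33 CPM in monocytes and 139 and 123 CPM on day 1 (log2 fold change 4.47 ± 0.83, adjusted p = 0.0044). The glucocorticoid receptor gene Nr3c1 fell (log2 fold change -1.096 ± 0.31, adjusted p = 0.0301), and so did Tfeb, a factor of lysosome genes (log2 fold change -1.37 ± 0.39, adjusted p = 0.0321). Without 1 of the libraries the threshold was missed by Vdr without monocyte replicate 2 (adjusted p up to 0.0507), Nr3c1 without monocyte replicate 1 or either day 1 library (adjusted p up to 0.161) and Tfeb without either monocyte library or day 1 replicate 2 (adjusted p up to 0.188).

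The AP-1 and EGR family split by member. Of 15 genes tested, 5 rose and 6 fell. Ier2 fell from 319 and 305 CPM to 57.97 and 43.1 CPM (log2 fold change -2.62 ± 0.30, adjusted p = 0.000428), Egr1 from 58.5 and 5.80 CPM to 3.14 and 1.14 CPM and Jun from 592 and 179 CPM to 159.6 and 104 CPM. Against these, Egr2, which IL-4 and GM-CSF induce in macrophages, was at 7.89 and 0 CPM in monocytes and 232 and 251 CPM on day 1 (log2 fold change 5.89 ± 1.19, adjusted p = 0.0069). Ier3 was at 4.83 and 9.28 CPM in monocytes and 82.01 and 129 CPM on day 1 (log2 fold change 3.91 ± 0.39, adjusted p = 0.000232). Fosl1 had no read in monocytes and 5.29 and 3.92 CPM on day 1, at least 34.5-fold higher. The group that turns such signals off moved down more often than up, with 5 falls and 2 rises among 11 genes. Zfp36, whose product tristetraprolin removes cytokine mRNAs, was at 1508 and 472 CPM in monocytes and 120.2 and 98.9 CPM on day 1 (log2 fold change -3.18 ± 0.52, adjusted p = 0.00233), and its relative Zfp36l1 rose from 3.75 and 1.05 CPM to 329.8 and 234 CPM (log2 fold change 6.83 ± 0.69, adjusted p = 0.000248). The phosphatase gene Dusp1 fell (log2 fold change -3.52 ± 0.55, adjusted p = 0.00189). Fos, Zfp36, Dusp1, Egr1 and Jun were all 3-fold or more apart between the 2 monocyte libraries, with replicate 1 the higher. The 5 AP-1 and EGR rises were 3 without monocyte replicate 2 or day 1 replicate 1, the 6 falls 3 without monocyte replicate 1 or either day 1 library and the 5 feedback falls 3 without monocyte replicate 1 or day 1 replicate 1. The threshold was missed, with 1 library left out, by Egr1 and Jun without monocyte replicate 1 or either day 1 library (adjusted p up to 0.386) and Fosl1 without monocyte replicate 2 or day 1 replicate 1 (adjusted p up to 0.0608).

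**Figure D3:**
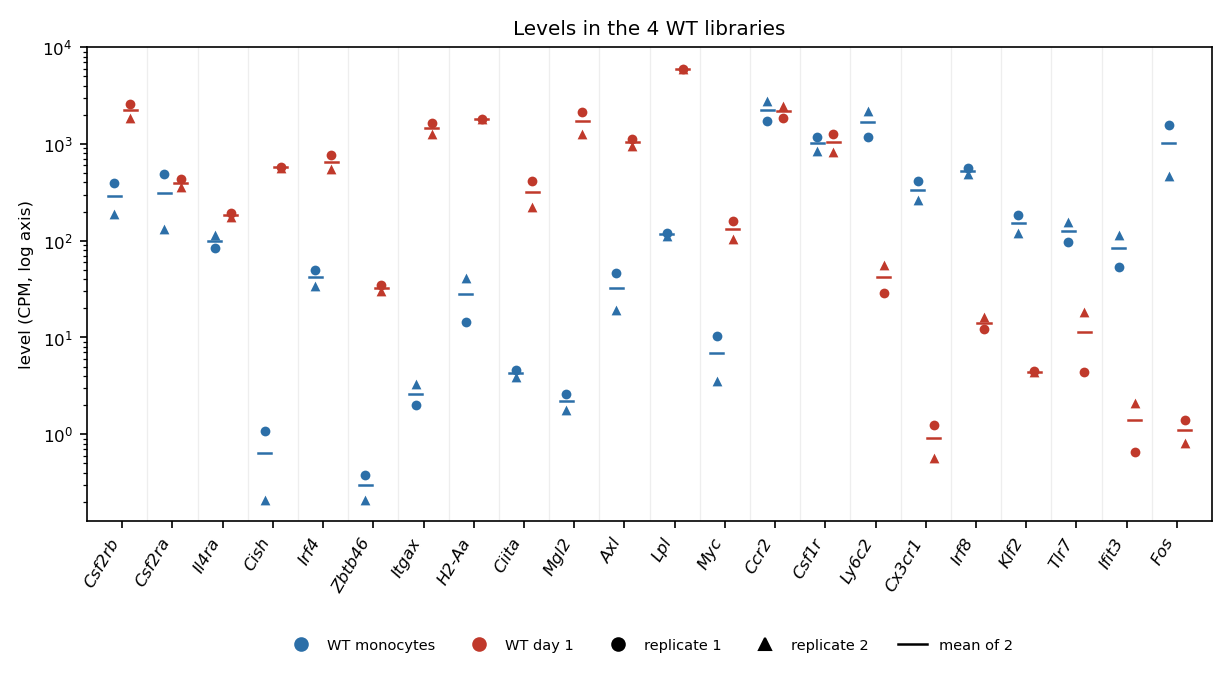
Levels of 22 genes in each of the 4 libraries (CPM on a log axis), with circles for replicate 1, triangles for replicate 2 and lines for the mean of 2. Csf2rb, Irf4, H2-Aa, Lpl and the genes beside them sit higher on day 1, and Ly6c2, Cx3cr1, Irf8, Klf2 and Fos lower, while the groups of Csf2ra, Ccr2 and Csf1r overlap.

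Genes that mark the classical, Ly6C-high monocyte fell in part. Of 11 surface and chemotaxis genes tested, none rose and 6 fell (2 without either day 1 library). Ly6c2, the antigen that names this subset, was at 1177 and 2205 CPM in monocytes and 28.9 and 56.2 CPM on day 1 (log2 fold change -5.31 ± 1.10, adjusted p = 0.00784), and reads it shares with its close paralog may be lost. Mgst1, a microsomal glutathione transferase, fell (log2 fold change -5.38 ± 0.77, adjusted p = 0.00127). Cx3cr1, described above and also a marker of patrolling monocytes, is counted among the 6 falls. Ccr2, the receptor that lets monocytes leave the marrow, was at 1723 and 2768 CPM in monocytes and 1851 and 2492 CPM on day 1 (adjusted p = 0.968), and the integrin gene Itgam at 195 and 134 CPM in monocytes and 241 and 213 CPM on day 1 (adjusted p = 0.397). Of 16 secreted and intracellular genes, 1 rose and 7 fell (4 without either day 1 library). Plac8 was at 1122 and 2111 CPM in monocytes and 2.89 and 10.9 CPM on day 1 (log2 fold change -7.88 ± 1.07, adjusted p = 0.000973). Ifitm6 and Ifitm3, interferon-induced membrane proteins, fell, with log2 fold changes of -5.67 ± 0.80 and -5.23 ± 0.96. Fn1, fibronectin, fell from 11502 and 4293 CPM to 1272 and 664 CPM. The single rise was that of Vcan, the proteoglycan versican, from 175 and 157 CPM to 1335 and 677 CPM (log2 fold change 2.601 ± 0.50, adjusted p = 0.00539). Missing the threshold with 1 library left out were Ly6c2 without either day 1 library (adjusted p up to 0.074) and Fn1 without monocyte replicate 1 or either day 1 library (adjusted p up to 0.182).

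Of 13 genes of nonclassical monocytes, 7 fell and 1 rose. Cd300a, an inhibitory receptor, was at 284 and 484 CPM in monocytes and 13.7 and 23.1 CPM on day 1 (log2 fold change -4.38 ± 0.53, adjusted p = 0.000578). Spn, the sialomucin CD43, was at 457 and 386 CPM in monocytes and 97.4 and 49.3 CPM on day 1 (log2 fold change -2.52 ± 0.39, adjusted p = 0.00195). Cd36, the fatty acid and apoptotic cell receptor, moved the other way, from 3.29 and 3.69 CPM to 180.4 and 538 CPM (log2 fold change 6.68 ± 1.498, adjusted p = 0.0112). Some genes of proteins stored in granules at the progenitor stage also fell. Of 16 tested, 6 fell and none rose. Elane, neutrophil elastase, was at 129 and 188 CPM in monocytes and 3.14 and 1.795 CPM on day 1 (log2 fold change -6.002 ± 0.63, adjusted p = 0.000289), and Prtn3, proteinase 3, at 145 and 180.0 CPM in monocytes and 2.23 and 1.88 CPM on day 1 (log2 fold change -6.298 ± 0.46, adjusted p = 3.51e-05). Progenitor marker sums were lower in the same libraries, as given above. The count of 7 nonclassical falls was 4 without monocyte replicate 2 or either day 1 library. In fits without 1 library, calls were lost for Cd36 without either monocyte library (adjusted p up to 0.0942).

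Receptors that hold leukocytes to vessels and matrix fell more often than they rose. Of 16 integrins and selectins, 6 fell (37.5%) and 2 rose (12.5%), beside 10.1% and 11.4% of all genes. Itgb7, the partner of alpha 4 and alpha E integrins, was at 873 and 962 CPM in monocytes and 33.3 and 11.3 CPM on day 1 (log2 fold change -5.36 ± 0.74, adjusted p = 0.00107). Selplg, the ligand of P-selectin, was at 631 and 599 CPM in monocytes and 189.9 and 138 CPM on day 1 (log2 fold change -1.91 ± 0.34, adjusted p = 0.00396), and Itgb3, a vitronectin receptor chain, fell by 3.84 ± 0.56 on the log2 scale. Itgax, the CD11c chain, rose from 1.99 and 3.27 CPM to 1642 and 1264 CPM (log2 fold change 9.12 ± 0.58, adjusted p = 2.77e-05). Genes that cut matrix, or inhibit its cutting, rose more often than they fell. Of 15 proteases and inhibitors, 9 rose and 1 fell, with a median log2 fold change of 3.72. Adam8, a sheddase, was at 10.3 and 12.7 CPM in monocytes and 1617 and 1089 CPM on day 1 (log2 fold change 6.88 ± 0.52, adjusted p = 4.36e-05). Mmp14, the membrane-bound collagenase, was at 0 and 0.211 CPM in monocytes and 67.6 and 70.5 CPM on day 1 (ratio 778 (95% interval 215 to 6430.0)). Plau, urokinase, was at 29.8 and 33.6 CPM in monocytes and 731 and 647 CPM on day 1 (log2 fold change 4.44 ± 1.01, adjusted p = 0.012). Serpinb2, an inhibitor of urokinase, was not read in monocytes and was at 3.88 and 11.1 CPM on day 1, at least 56.4-fold higher. Timp2, an inhibitor of metalloproteinases, fell (log2 fold change -2.42 ± 0.51, adjusted p = 0.0088). The 9 rises were 5 without monocyte replicate 2. Lost when 1 library was left out were the calls of Plau without either monocyte library (adjusted p up to 0.0952) and Timp2 without either day 1 library (adjusted p up to 0.068).

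Genes of MHC class II presentation rose within the day. Of 10 class II chains and peptide-loading genes tested, 7 rose and 1 fell, and these counts were the same in each fit that left out 1 of the 4 WT libraries. H2-Aa (ENSMUSG00000036594.14, chromosome 17, 34282744 to 34287823, reverse strand) was at 14.4 and 41.7 CPM in monocytes and 1812 and 1806 CPM on day 1 (log2 fold change 6.02 ± 0.52, adjusted p = 0.0001). H2-Ab1 was at 20.5 and 41.2 CPM in monocytes and 2068 and 1460.0 CPM on day 1 (log2 fold change 5.84 ± 0.49, adjusted p = 8.48e-05) and H2-Eb1 at 6.82 and 14.03 CPM in monocytes and 1104 and 830.4 CPM on day 1 (log2 fold change 6.54 ± 0.54, adjusted p = 7.29e-05). These are the alpha and beta chains of I-A and the beta chain of I-E. Cd74, the invariant chain that guides them, rose by 5.23 ± 0.40 on the log2 scale. H2-DMb1, of the dimer that loads peptides, was at 57.5 and 69.9 CPM in monocytes and 791 and 697 CPM on day 1 (log2 fold change 3.55 ± 0.33, adjusted p = 0.000147). H2-Oa, part of the inhibitor of that dimer, had 1.46 and 2.11 CPM in monocytes and no read on day 1, at least 14.1-fold lower. Ciita, the coactivator that class II genes need, was at 4.598 and 3.902 CPM in monocytes and 412 and 222 CPM on day 1 (log2 fold change 6.21 ± 0.47, adjusted p = 4.2e-05). March8, a ligase that removes class II molecules from the surface, rose too, from 12.6 and 6.01 CPM to 76.9 and 71.8 CPM (log2 fold change 2.99 ± 0.34, adjusted p = 0.00045).

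The promoters of H2-Eb1 and H2-Aa are shown because class II promoters share a Y box, a CCAAT element bound by NF-Y. Capitals mark CCAAT or its reverse complement ATTGG. H2-Eb1 is read on the forward strand at chr17:34305757-34305847 and H2-Aa on the reverse strand at chr17:34287843-34287933 (GRCm38.p6, RefSeq).
H2-Eb1: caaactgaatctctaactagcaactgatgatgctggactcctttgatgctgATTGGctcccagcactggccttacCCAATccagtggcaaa
H2-Aa: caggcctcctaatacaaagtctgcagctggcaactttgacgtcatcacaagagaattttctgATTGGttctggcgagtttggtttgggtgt
Of 9 promoters found for 8 of the 10 genes of the group, 8 (88.9%) held the motif, against 37.4% of all promoters in the table.

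MHC class I genes fell more often than they rose. Of 16 genes, 5 fell and 2 rose. The class I chain genes H2-K1 and H2-D1 were at 824 and 1202 CPM in monocytes and 383 and 419.6 CPM on day 1, and at 2043 and 1563 CPM in monocytes and 830.1 and 822 CPM on day 1, in turn (log2 fold change -1.34 ± 0.36, adjusted p = 0.0245 and log2 fold change -1.13 ± 0.31, adjusted p = 0.026). B2m, their shared light chain, was at 1319 and 3051 CPM in monocytes and 402 and 780.3 CPM on day 1 (log2 fold change -1.89 ± 0.49, adjusted p = 0.0214). Class I genes have many similar copies, so single counts are uncertain. Both rises were of endoplasmic reticulum chaperones, and Calr, calreticulin, is also counted with the unfolded protein response below. Among lysosomal proteases and their inhibitors 5 of 17 fell and 2 rose. Ctsb and Ctsh, cathepsins B and H, fell, with log2 fold changes of -1.64 ± 0.43 and -1.796 ± 0.48. Ctsz, cathepsin Z, was at 421 and 342 CPM in monocytes and 1138 and 1277 CPM on day 1 (log2 fold change 1.66 ± 0.30, adjusted p = 0.0038). The 5 class I falls were 1 without monocyte replicate 2, 0 without day 1 replicate 1 and 2 without day 1 replicate 2, and the 5 protease falls were 3 without monocyte replicate 2 and 2 without either day 1 library. Calls that ended when 1 library was left out were those of H2-K1 and Ctsh without monocyte replicate 2 or either day 1 library (adjusted p up to 0.141), H2-D1 without monocyte replicate 1 or either day 1 library (adjusted p up to 0.114) and B2m without monocyte replicate 2 or day 1 replicate 1 (adjusted p up to 0.144). With 1 library left out, calls ended for Ctsb without either day 1 library (adjusted p up to 0.117).

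Genes of dendritic cell identity rose in part. Of 17 tested, 8 rose and 2 fell. Beside Itgax and Zbtb46, Cd24a, a glycoprotein of cDC1 and of many immature cells, was at 134 and 191 CPM in monocytes and 797 and 912 CPM on day 1 (log2 fold change 2.396 ± 0.45, adjusted p = 0.00463). Cd209c, a lectin near Cd209a, was at 0.0766 and 0 CPM in monocytes and 29.7 and 22.7 CPM on day 1 (ratio 590.0 (95% interval 106 to 23340.0)). Dpp4 (CD26), which marks cDC1, fell from 31.3 and 56.4 CPM to 1.57 and 1.63 CPM (log2 fold change -4.76 ± 0.48, adjusted p = 0.000233). Of 25 maturation and migration genes, 9 rose and 2 fell. Traf1, an adaptor of TNF receptors, was at 0.2299 and 0.211 CPM in monocytes and 63.5 and 67.5 CPM on day 1 (log2 fold change 8.14 ± 0.38, adjusted p = 6.35e-06). Cd274, which encodes PD-L1, was at 4.14 and 2.43 CPM in monocytes and 91.2 and 169 CPM on day 1 (log2 fold change 5.29 ± 0.47, adjusted p = 0.000125). Cd83, a surface marker of mature dendritic cells, was at 1.76 and 1.48 CPM in monocytes and 14.5 and 36.9 CPM on day 1 (log2 fold change 3.97 ± 0.72, adjusted p = 0.00408), and the costimulator gene Cd80 rose (log2 fold change 3.08 ± 0.82, adjusted p = 0.0228). Ccr7, the lymph node homing receptor, was at 0.0766 and 0.211 CPM in monocytes and 10.1 and 7.34 CPM on day 1 (adjusted p = 0.0589). Il15, a cytokine that supports T and NK cells, fell from 19.8 and 31.5 CPM to 0.908 and 2.77 CPM (log2 fold change -3.79 ± 0.84, adjusted p = 0.0109). The 8 identity rises were 5 without monocyte replicate 1 or day 1 replicate 1 and 4 without monocyte replicate 2, and the 9 maturation rises were 5 without monocyte replicate 2 or day 1 replicate 2. Without 1 of the libraries the threshold was missed by Cd209c without either monocyte library (adjusted p up to 0.0826), Cd209a without either monocyte library or either day 1 library or KO day 1 replicate 1 (adjusted p up to 0.194) and Cd80 without either monocyte library or either day 1 library (adjusted p up to 0.121). The threshold was missed, with 1 library left out, by Il15 without day 1 replicate 1 (adjusted p up to 0.0849).

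NF-kB genes were mixed, and 21.4% of subunits and inhibitors rose and 14.3% fell, beside 11.4% and 10.1% of all genes. Of 12 targets and adaptors 4 rose (7 without monocyte replicate 1) and none fell, and of 14 subunits and inhibitors 3 rose and 2 fell. Icam1, an adhesion ligand, was at 56.1 and 32.1 CPM in monocytes and 254 and 190.1 CPM on day 1 (log2 fold change 2.33 ± 0.33, adjusted p = 0.00127). Tnip3, an inhibitor of the pathway, was at 1.07 and 4.75 CPM in monocytes and 192 and 257 CPM on day 1 (log2 fold change 6.31 ± 0.99, adjusted p = 0.00197), and Nfkbie, which encodes an inhibitory IkB, at 25.9 and 20.9 CPM in monocytes and 143 and 119 CPM on day 1 (log2 fold change 2.49 ± 0.29, adjusted p = 0.000505). Relb, the subunit of the noncanonical arm, rose (log2 fold change 1.54 ± 0.39, adjusted p = 0.0187). Ikbkb, the kinase of the canonical arm, fell (log2 fold change -1.500 ± 0.33, adjusted p = 0.0103). Among cytokine and TNF family receptors 5 of 19 rose and 5 fell. Il21r, the IL-21 receptor, was at 0.536 and 1.27 CPM in monocytes and 118 and 166 CPM on day 1 (log2 fold change 7.34 ± 0.52, adjusted p = 2.99e-05), and Il7r, which had no read in monocytes, was at 6.36 and 10.3 CPM, at least 62.6-fold higher. Ifngr1, a chain of the interferon gamma receptor, was at 395 and 345 CPM in monocytes and 74.8 and 68.1 CPM on day 1 (log2 fold change -2.37 ± 0.45, adjusted p = 0.00471), and Tnfrsf1b, TNF receptor 2, fell from 747 and 419.6 CPM to 86.4 and 86.6 CPM. Tnf rose from 11.1 and 13.2 CPM to 39.8 and 68.1 CPM (log2 fold change 2.15 ± 0.43, adjusted p = 0.00685), and Ptgs2, the inducible cyclooxygenase, fell (log2 fold change -5.003 ± 1.21, adjusted p = 0.0153). The 5 receptor rises were 3 without monocyte replicate 2 or day 1 replicate 1 and the 5 falls 3 without monocyte replicate 1 and 1 without either day 1 library. Missing the threshold with 1 library left out were Relb without monocyte replicate 2 or either day 1 library (adjusted p up to 0.0921), Ikbkb and Tnf without day 1 replicate 2 (adjusted p up to 0.0804) and Tnfrsf1b without monocyte replicate 1 or either day 1 library (adjusted p up to 0.115). In fits without 1 library, calls were lost for Ptgs2 without day 1 replicate 1 (adjusted p up to 0.0644).

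Chemokine ligand genes rose more often than they fell. Of 13 CC ligands tested 6 rose and 1 fell. Ccl7, a ligand of CCR2, was at 0 and 0.105 CPM in monocytes and 17.7 and 72.6 CPM on day 1 (ratio 1021 (95% interval 183 to 40360.0)). Ccl8 and Ccl12, also ligands of monocyte receptors, had no read in monocytes and were at 3.72 and 13.1 CPM and 2.64 and 9.96 CPM, at least 63.5-fold and 47.5-fold higher. In these 3 genes replicate 2 was 3-fold or more above replicate 1. Ccl3, an inflammatory chemokine, fell from 125 and 85.1 CPM to 1.404 and 9.87 CPM (log2 fold change -4.21 ± 0.83, adjusted p = 0.00612). Of 10 CXC and CX3C ligands 4 rose and 2 fell. Cxcl16, a membrane-bound ligand of CXCR6, was at 1.303 and 2.21 CPM in monocytes and 62.2 and 112 CPM on day 1 (log2 fold change 5.65 ± 0.59, adjusted p = 0.000289). Pf4, platelet factor 4, was at 1.69 and 2.43 CPM in monocytes and 21.4 and 93.8 CPM on day 1 (log2 fold change 4.81 ± 0.78, adjusted p = 0.00227), while the sums of the 6 megakaryocyte markers, which include it, were 96.4 and 56.95 CPM in monocytes and 30.97 and 115 CPM on day 1. Cxcl12, the marrow retention factor, fell from 10.9 and 9.597 CPM to 0 and 0.408 CPM. Lost when 1 library was left out were the calls of Cxcl12 without day 1 replicate 1 (adjusted p up to 0.0808).

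Of 13 chemokine receptors 2 rose and 2 fell (15.4% each), near the 11.4% and 10.1% of all genes, with Cx3cr1 among the falls. Cxcr4, the receptor that holds cells in the marrow, was at 227 and 211 CPM in monocytes and 14.9 and 13.2 CPM on day 1 (log2 fold change -3.96 ± 0.84, adjusted p = 0.0088). Cxcr2, the receptor of CXCL3, was at 1.15 and 1.48 CPM in monocytes and 217 and 189 CPM on day 1 (log2 fold change 7.27 ± 1.62, adjusted p = 0.0108), while the neutrophil marker sums, which include it, overlapped between the groups. Cmklr1, the chemerin receptor, was at 3.68 and 5.17 CPM in monocytes and 114 and 146 CPM on day 1 (log2 fold change 4.88 ± 0.78, adjusted p = 0.00224), and C3ar1, the receptor of complement C3a, at 3.68 and 1.58 CPM in monocytes and 38.8 and 76.1 CPM on day 1 (log2 fold change 4.42 ± 0.79, adjusted p = 0.00378). Gpr183, which binds oxysterols, fell from 41.99 and 61.4 CPM to 4.21 and 12.4 CPM (log2 fold change -2.63 ± 0.57, adjusted p = 0.00979). Calls that ended when 1 library was left out were those of Cx3cr1 and Cxcr4 without either day 1 library (adjusted p up to 0.0734), Cxcr2 without either monocyte library (adjusted p up to 0.0915) and Gpr183 without day 1 replicate 1 (adjusted p up to 0.067).

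Most Toll-like receptors and their partners fell. Of 16 tested none rose and 10 fell, with a median log2 fold change of -2.32. Tlr13, which senses bacterial ribosomal RNA, was at 300.5 and 398 CPM in monocytes and 22.5 and 44.1 CPM on day 1 (log2 fold change -3.39 ± 0.73, adjusted p = 0.00962). Tlr7, the receptor of single-stranded RNA, was at 97.9 and 156 CPM in monocytes and 4.38 and 18.2 CPM on day 1 (log2 fold change -3.49 ± 1.04, adjusted p = 0.0375). Tlr5, the flagellin receptor, was at 13.6 and 4.85 CPM in monocytes and 0 and 0.163 CPM on day 1, a day 1 to monocyte ratio of 0.00826 (95% interval 0.000994 to 0.0302) (adjusted p = 0.00543). Ly86 (MD-1), which partners Cd180, was at 236 and 605 CPM in monocytes and 57.1 and 106 CPM on day 1 (log2 fold change -2.36 ± 0.57, adjusted p = 0.0152), and Cd14, the lipopolysaccharide coreceptor, at 58.5 and 34.5 CPM in monocytes and 5.04 and 7.67 CPM on day 1 (log2 fold change -2.87 ± 0.72, adjusted p = 0.0175). Unc93b1, which brings nucleic acid sensors to endosomes, fell (log2 fold change -1.52 ± 0.45, adjusted p = 0.0362). The count of 10 was 5 without monocyte replicate 1, 4 without monocyte replicate 2 or day 1 replicate 2 and 2 without day 1 replicate 1. With 1 library left out, calls ended for Tlr13 without day 1 replicate 1 (adjusted p up to 0.0847), Tlr7, Cd180 and Unc93b1 without either monocyte library or either day 1 library (adjusted p up to 0.196) and Ly86 without monocyte replicate 2 or day 1 replicate 1 (adjusted p up to 0.115). Without 1 of the libraries the threshold was missed by Cd14 without monocyte replicate 1 or either day 1 library (adjusted p up to 0.121).

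Uptake receptors rose more often than they fell. Of 17 C-type lectins 5 rose and 1 fell. Clec4n, which encodes Dectin-2, was at 3.68 and 9.07 CPM in monocytes and 639.8 and 1276 CPM on day 1 (log2 fold change 7.24 ± 0.72, adjusted p = 0.000232). Of 12 scavenger and apoptotic cell receptors 4 rose and 2 fell. Axl, a receptor of apoptotic cells, was at 46.2 and 19.2 CPM in monocytes and 1134 and 962 CPM on day 1 (log2 fold change 4.999 ± 0.65, adjusted p = 0.000836), and its relative Mertk at 0.2299 and 0.105 CPM in monocytes and 1.82 and 5.55 CPM on day 1 (log2 fold change 4.32 ± 0.78, adjusted p = 0.00408). Scarb1, the HDL receptor, fell (log2 fold change -1.899 ± 0.32, adjusted p = 0.00267). The single rise among 8 Fc receptors was the inhibitory Fcgr2b, at 166 and 183 CPM in monocytes and 1319 and 1913 CPM on day 1 (log2 fold change 3.21 ± 0.33, adjusted p = 0.00028). That share of 12.5% was near the 11.4% of all genes. Of 12 complement genes 5 rose and 3 fell. The 3 chains of C1q rose, with C1qb at 1.46 and 3.59 CPM in monocytes and 54.6 and 89.4 CPM on day 1 (log2 fold change 4.86 ± 0.52, adjusted p = 0.000304) and C1qa and C1qc up by 4.61 ± 0.63 and 5.17 ± 0.52 on the log2 scale. C1q and Mertk are also markers of macrophages, whose list of 10 summed to 323 and 398 CPM in monocytes and 252 and 384 CPM on day 1, within the range of the monocyte libraries on day 1 replicate 2 and below it in replicate 1. Of its 8 members tested, 4 rose (50%) and 1 fell (12.5%), beside 11.4% and 10.1% of all genes, with a median log2 fold change of 1.81. C3, the central complement component, fell from 2862 and 2526 CPM to 463 and 236 CPM (log2 fold change -2.95 ± 0.92, adjusted p = 0.0438). The 5 lectin rises were 3 without monocyte replicate 2 or either day 1 library and 8 with the experiment as a block, the 4 scavenger rises 2 without monocyte replicate 2 and the 3 complement falls 1 without either day 1 library. The threshold was missed, with 1 library left out, by C3 without either monocyte library or either day 1 library (adjusted p up to 0.213).

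With Irf5 as the exception, interferon-stimulated genes fell or were not called, and most of these calls depended on 1 library. Of 22 antiviral effectors and sensors none rose and 7 fell, with a median log2 fold change of -2.70. Ifit3 was at 53.6 and 115 CPM in monocytes and 0.661 and 2.12 CPM on day 1 (log2 fold change -5.91 ± 1.42, adjusted p = 0.0148) and Ifit2 at 62.6 and 79.7 CPM in monocytes and 1.404 and 3.43 CPM on day 1 (log2 fold change -4.87 ± 1.19, adjusted p = 0.016), both effectors that bind viral RNA. Zbp1, a sensor of Z-form nucleic acids, was at 118 and 249 CPM in monocytes and 20.8 and 48.9 CPM on day 1 (log2 fold change -2.398 ± 0.61, adjusted p = 0.0191). Of 13 guanylate-binding proteins and GTPases none rose and 5 fell. Irgm2 was at 51.9 and 62.2 CPM in monocytes and 5.53 and 10.3 CPM on day 1 (log2 fold change -2.85 ± 0.75, adjusted p = 0.0216) and Irgm1 at 115 and 163 CPM in monocytes and 18.1 and 30.4 CPM on day 1 (log2 fold change -2.52 ± 0.70, adjusted p = 0.0283), GTPases that act on vacuoles of microbes. Of 9 interferon regulatory factors and STATs 1 rose and 4 fell. Irf7, the amplifier of type I interferon, was at 208 and 291 CPM in monocytes and 5.37 and 19.3 CPM on day 1 (log2 fold change -4.33 ± 1.26, adjusted p = 0.0337, and adjusted p = 0.0635 with the experiment as a block), and Irf5 rose from 618 and 421 CPM to 1264 and 1195 CPM (log2 fold change 1.24 ± 0.29, adjusted p = 0.013). The antiviral count of 7 was 0 without monocyte replicate 2 or day 1 replicate 1, 1 without day 1 replicate 2 and 15 without KO day 1 replicate 1. The GTPase count of 5 was 3 without monocyte replicate 1, 2 without monocyte replicate 2 and 1 without either day 1 library. The count of 4 factors was 1 without either monocyte library or day 1 replicate 2, 0 without day 1 replicate 1 and 2 with the experiment as a block. Missing the threshold with 1 library left out were Irf5 and Zbp1 without monocyte replicate 2 or day 1 replicate 1 (adjusted p up to 0.132), Ifit3, Ifit2 and Irgm2 without monocyte replicate 2 or either day 1 library (adjusted p up to 0.142) and Irgm1 and Irf7 without either monocyte library or either day 1 library (adjusted p up to 0.183).

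The promoters of Ifit3 and Irgm2 are shown for the element by which interferon-stimulated genes are known. Capitals mark GAAA, 2 letters and GAAA again on either strand, the core of the interferon-stimulated response element, which 3.44% of all promoters in the table held. Ifit3 is read on the forward strand at chr19:34583359-34583429 and Irgm2 on the forward strand at chr11:58214857-58214937 (GRCm38.p6, RefSeq).
Ifit3: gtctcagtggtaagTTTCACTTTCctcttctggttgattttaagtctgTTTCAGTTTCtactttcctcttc
Irgm2: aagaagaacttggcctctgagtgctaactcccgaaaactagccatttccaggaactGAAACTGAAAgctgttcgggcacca
Too few of the group's genes were matched to promoters to give a share.

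Many genes of mitosis and of DNA replication fell. Of 22 mitosis genes 20 fell and none rose, with a median log2 fold change of -1.81 (background 10.1%). Ccnb2, cyclin B2, was at 136 and 205 CPM in monocytes and 22.6 and 15.8 CPM on day 1 (log2 fold change -3.15 ± 0.35, adjusted p = 0.000393). Nusap1, which bundles spindle microtubules, was at 146 and 314 CPM in monocytes and 30.4 and 29.1 CPM on day 1 (log2 fold change -2.95 ± 0.36, adjusted p = 0.000647). Kif11, the kinesin that separates spindle poles, was at 216 and 202 CPM in monocytes and 63.3 and 43.01 CPM on day 1 (log2 fold change -1.98 ± 0.26, adjusted p = 0.000878), and Birc5, survivin, fell by 2.17 ± 0.34 on the log2 scale. Mki67, which encodes the proliferation antigen Ki-67, was at 593 and 679 CPM in monocytes and 421 and 212 CPM on day 1 (adjusted p = 0.0507, and 0.0246 with the experiment as a block). None of these genes was near 0 on day 1. The count of 20 mitosis falls was 13 without day 1 replicate 2. Of 21 DNA replication genes 11 fell and none rose, with a median of -1.27. Cdc45, of the replicative helicase, was at 62.9 and 59.2 CPM in monocytes and 16.7 and 16.3 CPM on day 1 (log2 fold change -1.89 ± 0.27, adjusted p = 0.00132), and Rrm1, a subunit of ribonucleotide reductase, at 241 and 285 CPM in monocytes and 123 and 83.3 CPM on day 1 (log2 fold change -1.35 ± 0.28, adjusted p = 0.00858). The 11 replication falls were 7 without monocyte replicate 2 and 1 without day 1 replicate 2. In fits without 1 library, calls were lost for Rrm1 without day 1 replicate 2 (adjusted p up to 0.0739).

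The promoters of Ccnb2 and Cdk1, the mitotic cyclin and kinase, are shown for the CCAAT boxes and the CHR (TTTGAA) known from mitotic genes. Capitals mark both motifs on either strand, as runs of letters and not as shown binding sites. The TTTGAA of Ccnb2 begins at -167 from the start, upstream of its CCAAT matches, and the last one of Cdk1 at -15. Ccnb2 is read on the reverse strand at chr9:70421564-70421734 and Cdk1 on the reverse strand at chr10:69352917-69353012 (GRCm38.p6, RefSeq).
Ccnb2: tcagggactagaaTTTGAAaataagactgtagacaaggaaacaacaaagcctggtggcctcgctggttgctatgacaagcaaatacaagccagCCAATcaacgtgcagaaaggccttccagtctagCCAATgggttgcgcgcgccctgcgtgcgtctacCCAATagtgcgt
Cdk1: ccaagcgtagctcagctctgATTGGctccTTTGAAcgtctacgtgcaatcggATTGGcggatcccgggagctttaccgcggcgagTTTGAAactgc
Cdk1 fell with the group (log2 fold change -1.997 ± 0.39, adjusted p = 0.00599). Promoters were found for 18 of the 22 mitosis genes, of which 16 (88.9%) held CCAAT and 13 (72.2%) the CHR, against 37.4% and 17.9% of all promoters. For DNA replication, 12 of 18 promoters (66.7%) of 17 genes held CCAAT and 2 the CHR. Lost when 1 library was left out were the calls of Cdk1 without day 1 replicate 1 (adjusted p up to 0.0531).

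Of the G1 regulators, 3 rose and 6 fell among 17. Cdkn1a, which encodes the inhibitor p21, was at 108 and 59.6 CPM in monocytes and 611 and 747 CPM on day 1 (log2 fold change 3.02 ± 0.38, adjusted p = 0.000695), while the genes of other inhibitors fell. Cdkn2d, which encodes p19, was at 105 and 97.7 CPM in monocytes and 10.4 and 9.303 CPM on day 1 (log2 fold change -3.36 ± 0.32, adjusted p = 0.000152), and Cdkn2c and Cdkn1b fell, with log2 fold changes of -2.51 ± 0.41 and -2.22 ± 0.33. Ccnd1, cyclin D1, was at 0.843 and 0 CPM in monocytes and 35.3 and 14.04 CPM on day 1 (log2 fold change 5.69 ± 0.98, adjusted p = 0.00317), and E2f2 fell (log2 fold change -2.22 ± 0.32, adjusted p = 0.00124). Of 16 targets of p53, 8 rose and 2 fell. Ccng1, cyclin G1, was at 77.5 and 90.3 CPM in monocytes and 312 and 481 CPM on day 1 (log2 fold change 2.24 ± 0.32, adjusted p = 0.00129), and Aen, a nuclease of apoptosis, at 16.6 and 8.12 CPM in monocytes and 77.6 and 94.2 CPM on day 1 (log2 fold change 2.79 ± 0.36, adjusted p = 0.000831). Sesn1, a sestrin, fell (log2 fold change -1.95 ± 0.41, adjusted p = 0.00804). Of 15 BCL2 family genes 7 rose and 2 fell. Bcl2 was at 6.13 and 5.69 CPM in monocytes and 54.1 and 47.3 CPM on day 1 (log2 fold change 3.097 ± 0.29, adjusted p = 0.000151) and Bcl2a1d, of a set of near-identical A1 copies whose counts are uncertain, at 0.536 and 0.527 CPM in monocytes and 220.1 and 361 CPM on day 1 (log2 fold change 9.06 ± 0.58, adjusted p = 2.77e-05). Bmf, which promotes death, fell from 63.6 and 35.96 CPM to 2.56 and 5.14 CPM (log2 fold change -3.69 ± 0.66, adjusted p = 0.00396), and Bax, also a promoter of death, rose (log2 fold change 1.75 ± 0.28, adjusted p = 0.00224). The 8 p53 target rises were 5 without monocyte replicate 2 or day 1 replicate 1. Calls that ended when 1 library was left out were those of Sesn1 without day 1 replicate 2 (adjusted p up to 0.0678).

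Genes that build ribosomes rose almost without exception. Of 22 tested 21 rose and none fell, with a median log2 fold change of 1.95 (background 11.4%), and the count was between 17 and 19 when 1 of the 4 WT libraries was left out. Gnl3, nucleostemin, was at 14.7 and 13.3 CPM in monocytes and 106 and 154 CPM on day 1 (log2 fold change 3.21 ± 0.46, adjusted p = 0.0012). Nolc1, a nucleolar phosphoprotein, was at 43.8 and 33.1 CPM in monocytes and 214 and 165 CPM on day 1 (log2 fold change 2.299 ± 0.29, adjusted p = 0.000657), and Rrs1, of the large subunit's assembly, at 16.3 and 8.33 CPM in monocytes and 89.2 and 76.8 CPM on day 1 (log2 fold change 2.74 ± 0.36, adjusted p = 0.000857). Ncl, nucleolin, rose by 1.95 ± 0.37 and Nop16 by 2.29 ± 0.30 on the log2 scale. In each of these genes both day 1 libraries were above both monocyte libraries. Of 15 cytosolic and mitochondrial chaperones 6 rose (3 without either day 1 library), with Hspd1, the mitochondrial HSP60, at 100.1 and 98.9 CPM in monocytes and 507 and 471 CPM on day 1 (log2 fold change 2.297 ± 0.35, adjusted p = 0.00177) and Hsph1, of the HSP110 family, at 36.7 and 31.1 CPM in monocytes and 175 and 161 CPM on day 1 (log2 fold change 2.31 ± 0.34, adjusted p = 0.00141).

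The unfolded protein response rose with them. Of 19 genes 13 rose and none fell, with a median of 1.69. Pdia6 and Pdia4, disulfide isomerases of the endoplasmic reticulum, were at 189.5 and 204 CPM in monocytes and 786 and 869.5 CPM on day 1, and at 83.4 and 115 CPM in monocytes and 437 and 458 CPM on day 1, in turn (log2 fold change 2.07 ± 0.31, adjusted p = 0.00141 and log2 fold change 2.17 ± 0.35, adjusted p = 0.00224). Hspa5, the chaperone BiP, was at 569 and 509.7 CPM in monocytes and 1808 and 1836 CPM on day 1 (log2 fold change 1.76 ± 0.29, adjusted p = 0.00266). Sdf2l1, a cofactor of BiP, was at 68.7 and 82.7 CPM in monocytes and 279.7 and 279 CPM on day 1 (log2 fold change 1.88 ± 0.28, adjusted p = 0.00154). Of 20 genes of the ATF4 and amino acid response 7 rose (3 without day 1 replicate 1) and 1 fell. Asns, asparagine synthetase, was at 0.383 and 1.48 CPM in monocytes and 25.4 and 21.95 CPM on day 1 (log2 fold change 4.71 ± 0.70, adjusted p = 0.00144), and Aldh18a1, of proline synthesis, at 11.95 and 10.02 CPM in monocytes and 127 and 64.2 CPM on day 1 (log2 fold change 3.12 ± 0.56, adjusted p = 0.00408). Slc3a2, the heavy chain of amino acid exchangers, rose (log2 fold change 1.47 ± 0.32, adjusted p = 0.00967). With 1 library left out, calls ended for Slc3a2 without monocyte replicate 2 or day 1 replicate 1 (adjusted p up to 0.0702).

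The promoters of Hspa5 and Pdia4 are shown because the endoplasmic reticulum stress element contains a CCAAT part that NF-Y binds. Capitals mark CCAAT or ATTGG. Hspa5 is read on the forward strand at chr2:34771865-34772040 and Pdia4 on the reverse strand at chr6:47813572-47813737 (GRCm38.p6, RefSeq).
Hspa5: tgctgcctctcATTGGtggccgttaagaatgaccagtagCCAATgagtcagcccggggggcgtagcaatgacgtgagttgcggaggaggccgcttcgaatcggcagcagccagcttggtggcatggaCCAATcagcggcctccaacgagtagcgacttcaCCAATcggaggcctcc
Pdia4: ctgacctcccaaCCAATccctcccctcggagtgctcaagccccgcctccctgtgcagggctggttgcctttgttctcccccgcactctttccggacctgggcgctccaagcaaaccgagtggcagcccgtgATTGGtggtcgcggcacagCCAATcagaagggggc
Promoters were found for 16 of the 19 genes, and 15 of 16 (93.8%) held the motif, against 37.4% of all promoters.

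**Figure D4:**
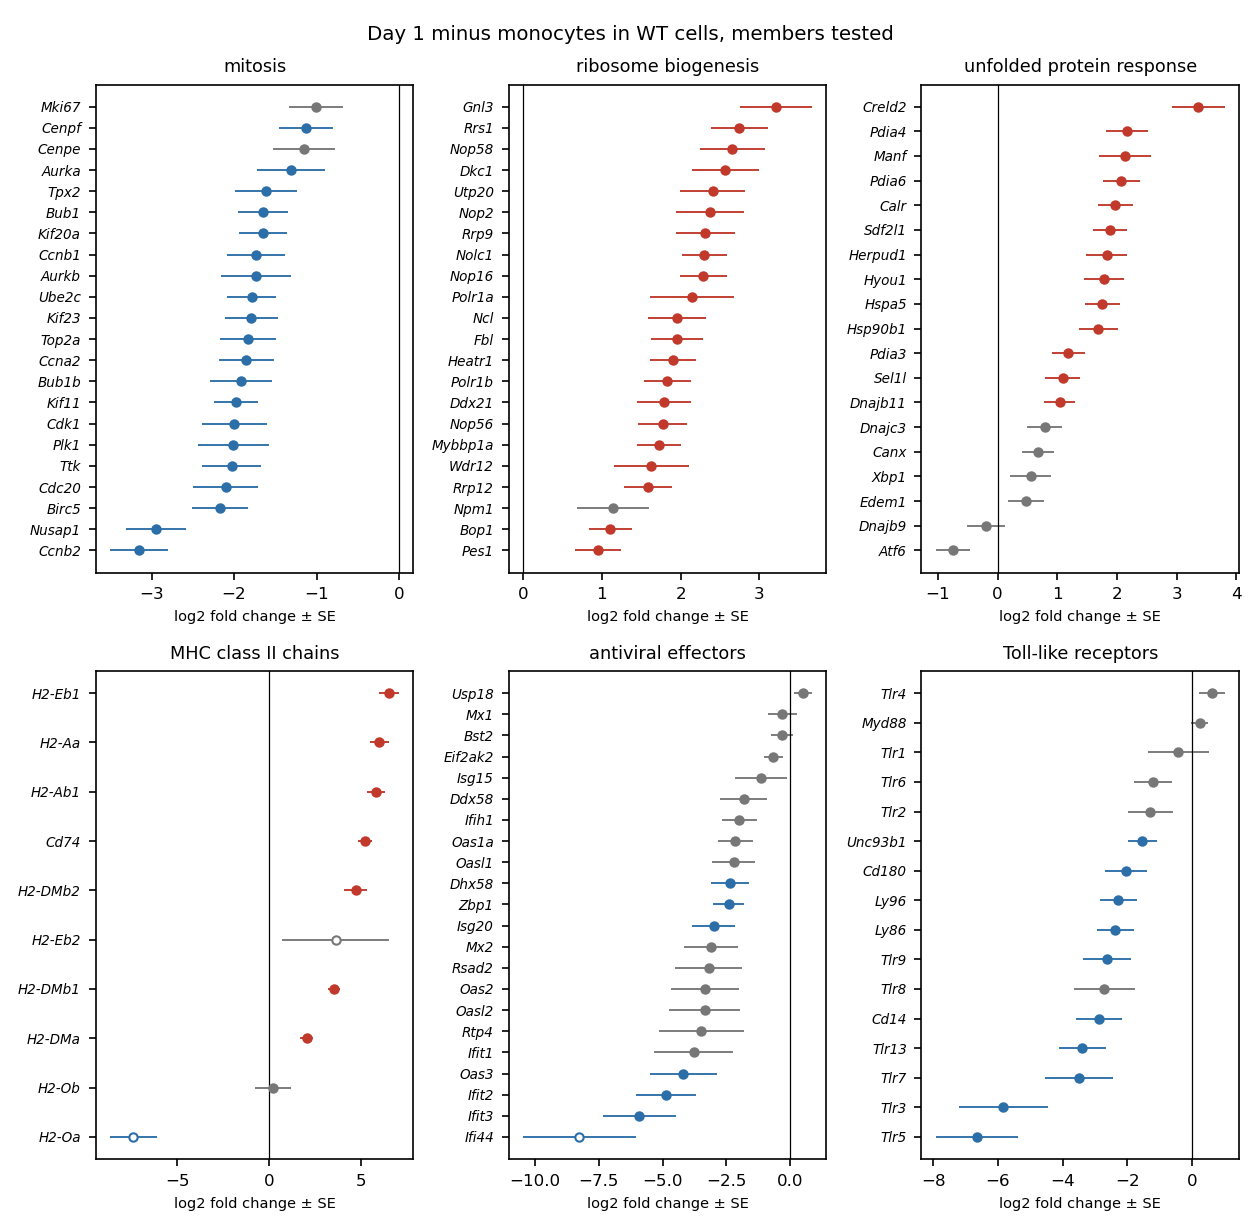
Log2 fold change of each tested member of 6 groups (mitosis, ribosome biogenesis, unfolded protein response, MHC class II chains, antiviral effectors and Toll-like receptors), with lines for ± SE. Red members rose, blue members fell, grey members did not pass and open markers had 0 reads in a group, so that their fitted value has no fixed size.

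Metabolic groups changed in single steps more than as wholes. The shares that rose were 16.7% for glycolysis, 23.5% for the tricarboxylic acid cycle and 8.33% for the respiratory chain, beside 11.4% of all genes. Of 18 glycolysis genes 3 rose (5 with the experiment as a block) and 1 fell. Pfkp, a phosphofructokinase isoform, was at 123 and 112 CPM in monocytes and 1392 and 1131 CPM on day 1 (log2 fold change 3.43 ± 0.52, adjusted p = 0.00163), Slc2a1, the glucose transporter GLUT1, at 41.9 and 35.6 CPM in monocytes and 151 and 133 CPM on day 1 (log2 fold change 1.87 ± 0.28, adjusted p = 0.00154), and Hk3, a hexokinase, fell (log2 fold change -1.65 ± 0.24, adjusted p = 0.0013). Of 17 genes of the tricarboxylic acid cycle 4 rose (2 without day 1 replicate 1 and 8 with the experiment as a block) and 1 fell. Acod1, which makes itaconate, was at 0.0766 and 0 CPM in monocytes and 20.4 and 83.2 CPM on day 1 (ratio 1171 (95% interval 209.7 to 46270.0)). Idh3a, of the mitochondrial NAD-dependent enzyme, was at 41.8 and 43.9 CPM in monocytes and 154 and 158 CPM on day 1 (log2 fold change 1.86 ± 0.31, adjusted p = 0.00267), while Idh1, the cytosolic NADP-dependent enzyme, was at 354 and 474 CPM in monocytes and 52.2 and 94.6 CPM on day 1 (log2 fold change -2.49 ± 0.46, adjusted p = 0.00447). Of 24 respiratory chain genes 2 rose (1 without monocyte replicate 1 or either day 1 library and 7 with the experiment as a block) and none fell. Atp5g1 rose from 38.01 and 57.5 CPM to 153 and 200.2 CPM (log2 fold change 1.89 ± 0.38, adjusted p = 0.00663). Without 1 of the libraries the threshold was missed by Acod1 without either monocyte library (adjusted p up to 0.0714).

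Lipid genes moved in both directions. Lpl, lipoprotein lipase, was at 121 and 112 CPM in monocytes and 6017 and 5924 CPM on day 1 (log2 fold change 5.68 ± 0.72, adjusted p = 0.00071). Apoe, the main apolipoprotein of macrophages, was at 316 and 286 CPM in monocytes and 7.43 and 15.6 CPM on day 1 (log2 fold change -4.71 ± 0.97, adjusted p = 0.00751), and Apoc1 had no read on day 1, at least 64.9-fold lower. Fasn, fatty acid synthase, was at 64.3 and 39.9 CPM in monocytes and 347 and 93.2 CPM on day 1 (log2 fold change 2.08 ± 0.53, adjusted p = 0.0189), with day 1 replicate 1 well above replicate 2. Of 16 genes of fatty acid synthesis and storage 6 rose and 1 fell, and of 20 genes of cholesterol synthesis 3 rose (0 without day 1 replicate 1 and 5 with the experiment as a block) and 1 fell. The 6 fatty acid rises were 2 without monocyte replicate 2 and 1 without day 1 replicate 1. Tbxas1, thromboxane synthase, was at 45.8 and 43.9 CPM in monocytes and 381 and 439 CPM on day 1 (log2 fold change 3.19 ± 0.34, adjusted p = 0.000304), and Alox5ap, which activates 5-lipoxygenase, fell from 770.5 and 1391 CPM to 219.8 and 197 CPM (log2 fold change -2.37 ± 0.44, adjusted p = 0.0046). The threshold was missed, with 1 library left out, by Apoe without day 1 replicate 1 (adjusted p up to 0.0717), Apoc1 without either day 1 library (adjusted p up to 0.055) and Fasn without monocyte replicate 2 or day 1 replicate 1 (adjusted p up to 0.204).

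Some genes of iron handling and of the oxidative stress response rose. Of 11 iron handling genes 3 rose and none fell. Tfrc, the transferrin receptor, was at 11.7 and 6.54 CPM in monocytes and 181 and 170.2 CPM on day 1 (log2 fold change 4.26 ± 0.61, adjusted p = 0.00129), and Slc11a2, the ferrous iron transporter DMT1, at 14.3 and 6.75 CPM in monocytes and 49.2 and 48.4 CPM on day 1 (log2 fold change 2.203 ± 0.35, adjusted p = 0.00225). Of 18 oxidative stress genes 6 rose (3 without day 1 replicate 2) and 2 fell (1 without monocyte replicate 1, 0 without monocyte replicate 2 or either day 1 library, 5 without KO day 1 replicate 1 and 5 with the experiment as a block). Txnrd1, thioredoxin reductase, was at 77.5 and 41.3 CPM in monocytes and 425 and 497 CPM on day 1 (log2 fold change 2.95 ± 0.37, adjusted p = 0.000695), Srxn1, sulfiredoxin, at 2.61 and 3.59 CPM in monocytes and 54.9 and 94.1 CPM on day 1 (log2 fold change 4.59 ± 0.49, adjusted p = 0.000303) and Gclm, of glutathione synthesis, at 20.6 and 15.5 CPM in monocytes and 111 and 155 CPM on day 1 (log2 fold change 2.88 ± 0.46, adjusted p = 0.0021). Cybb, the catalytic subunit of the phagocyte NADPH oxidase, was at 2265 and 2994 CPM in monocytes and 225 and 273 CPM on day 1 and only just passed (log2 fold change -3.398 ± 1.10, adjusted p = 0.0499). Missing the threshold with 1 library left out were Cybb without either monocyte library or either day 1 library (adjusted p up to 0.21).

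Cells without Nr4a3 were taken through the same culture. In KO cells, 1081 genes rose (7.7% of those tested) and 860 fell (6.13%) between monocytes and day 1. Of the genes that rose, 902 did so in both genotypes, 56.4% of the WT list and 83.4% of the KO list. Of those that fell, 732 did, 51.4% and 85.1%. Tested directly, the KO response minus the WT response passed for no gene (0% called) in edgeR. There, 400 of the 14034 genes tested had an unadjusted p under 0.05, a share below 0.05. In DESeq2 the difference passed for 2 genes, Traf1 (adjusted p = 0.0407) and Azin2 (adjusted p = 0.00584). With 2 libraries in a group, a count of 0 does not show that the 2 responses were alike. Traf1 was at 2.14 and 1.77 CPM in KO monocytes and 45.4 and 56.1 CPM on KO day 1, and its edgeR interaction was -3.45 ± 0.47 (adjusted p = 0.265). Azin2, an antizyme inhibitor, had no read in WT monocytes and 2.15 and 1.795 CPM on WT day 1, against 0.214 and 0.496 CPM and then no read in KO cells (adjusted p = 0.526 in edgeR). Next in rank were Bmx, Scd1, Lekr1 and Tom1l1, each with an adjusted p of 0.9999.

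The library labelled KO day 1 replicate 1 stood apart from its partner in some IL-4 targets. Retnla was at 2.25 and 253 CPM in it and in replicate 2, Arg1 at 2.42 and 171 CPM and Ccl24 at 1.56 and 575 CPM. Mgl2 was at 279 and 1591 CPM and Cd36 at 7.27 and 369 CPM. Against that order, Fscn1 was at 33.2 and 0.164 CPM. Nr4a3 itself had reads in this library and none in replicate 2, at the levels given above. What this means for the comparison of genotypes was not tested. Myc was at 94.9 and 118 CPM and Ncl at 686 and 1573 CPM in the same order. H2-Aa was at 28.3 and 29.2 CPM in KO monocytes and 2207 and 1843 CPM on KO day 1 (6.14 ± 0.53, adjusted p = 0.000107), and Irf8 at 455 and 562 CPM and 85.9 and 9.63 CPM (-3.42 ± 0.98, adjusted p = 0.042). Without that library the interaction count stayed at 0, and the WT counts were 1539 higher and 1682 lower.

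On day 2 the WT cultures, from other experiments by their dates and possibly sequenced apart, give each gene's later level but not a paired course. The stage and the experiment cannot be told apart there, and no test was run. Day 2 is set against the same day 1 libraries that the comparison above used, so the 2 are not independent. Over all genes tested, 29.5% had both day 2 libraries below both day 1 libraries and 31.4% had both above. Groups of growth and energy genes differed in how many members were below. All 22 of 22 ribosome biogenesis genes were below, 17 of 19 of the unfolded protein response, 18 of 24 of the respiratory chain, 11 of 17 of the tricarboxylic acid cycle, 9 of 18 of glycolysis and 8 of 20 of the ATF4 and amino acid response. Myc was at 159 and 104 CPM on day 1 and 14.3 and 18.3 CPM on day 2, and Ncl at 1304 and 1382 CPM and 415 and 451 CPM. Retnla was at 99.8 and 186 CPM and 9.66 and 2.02 CPM, and Arg1 at 49.2 and 156 CPM and 15.2 and 13.3 CPM.

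Other groups were above on day 2. Of the maturation and migration genes 22 of 25 were above, of cholesterol synthesis 19 of 20, of NF-kB targets and adaptors 9 of 12 and of NF-kB subunits and inhibitors 9 of 14. The low-count filter used all 12 libraries, day 2 among them. Members with almost no reads in monocytes and day 1, such as Cd70 (0 reads) and Tnfsf4 (1 read), were tested only through other libraries. For such genes the filter favoured a higher day 2 level in advance, also within the 31.4% of all genes. Ccr7 was at 10.1 and 7.34 CPM on day 1 and 853 and 739 CPM on day 2, Ccl22 at 159.6 and 222 CPM and 10746 and 15972 CPM, and Fscn1 at 24.5 and 22.2 CPM and 732 and 998 CPM. Irf8, which had fallen on day 1, was at 12.3 and 16.2 CPM and then 263 and 157 CPM. Of the class II chains, 7 of 10 were above and 2 below. Of the mitosis genes, 0 of 22 were above and 8 below.

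**Figure D5:**
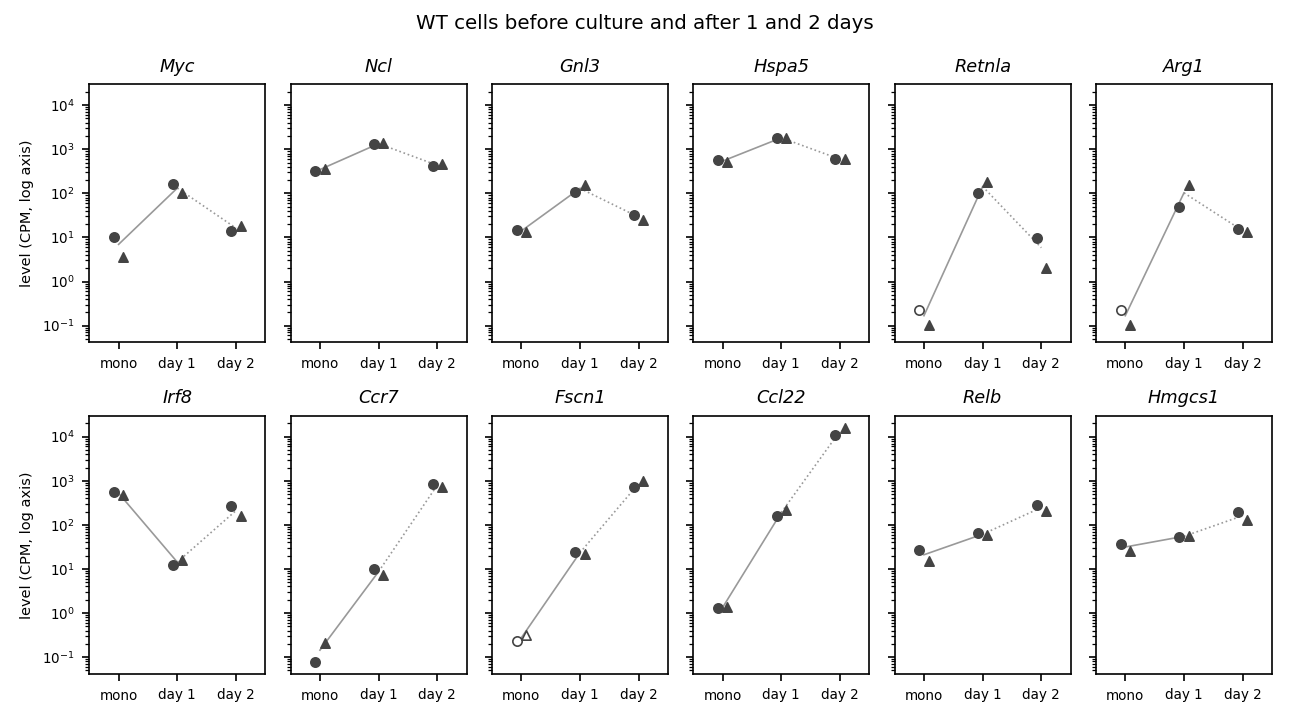
Levels of 12 genes (CPM on a common log axis) in WT monocytes, day 1 and day 2, with circles for replicate 1 and triangles for replicate 2. Open markers are libraries with 0 reads drawn at their 3-count floor, and dotted lines lead to day 2, which comes from other experiments. Myc, Ncl, Gnl3, Hspa5, Retnla and Arg1 are highest on day 1, while Ccr7, Fscn1, Ccl22, Relb and Hmgcs1 are highest on day 2 and Irf8 is lowest on day 1.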

How the data were processed

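Each library is 1 file of whole-number read counts per gene, as the authors deposited it, with no normalization. The labels' protocols give a stranded mRNA kit, 20 ng of RNA and 16 PCR cycles, and the submitters' processing notes name Trimmomatic 0.35, STAR 2.5.1b and GRCm38. An annotation release was not given in the sources used here. Column 4, the reverse-stranded counts, was used, without the 4 lines that name no gene, which held multimapping reads at 5.31% to 8.94% of the total in the 4 libraries. Of 47643 gene IDs, 47224 matched GENCODE M21, which gave symbols and coordinates.

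All 12 libraries were fitted in edgeR 4.0.16 (R 4.3.3) with TMM, filterByExpr, a robust quasi-likelihood fit and a mean for each group. The main fit held no term for the experiment. Tests were two-sided, with 6 residual degrees of freedom and a common biological coefficient of variation of 0.393. The code was tested on simulated counts. DESeq2 1.42.0 was an alternative. A group with 0 reads was set to 3 reads for a lower bound of a fold, and with 1 to 3 reads an exact 95% interval of the ratio is given, for counting error only. No replicate pair was within sampling noise. Lists of genes were counted, with no set test.

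The comparison and the gene lists were chosen with earlier results of these data known. Named were the 15 largest rises and falls of at least 5 CPM with the same direction in both pairs, leaving out predicted, clone-named and ribosomal protein genes. To these were added up to 5 called and 3 uncalled members of each role of a list, a fixed set of receptors, factors and markers, and the 6 genes highest in the interaction. A few genes that the rule names are not reported here. Chosen after their values were seen were Ccnd2, Pim3, Dcstamp, Ccl24, Cdh1, Etv3, Runx3, Tfeb, Egr1, Jun, Fosl1, Fn1, Plau, Timp2, H2-Oa, H2-D1, Ctsh, Cd209c, Cd80, Il15, Tnfrsf1b, Ccl3, Tlr7, Cd180, Unc93b1, C3, Cdk1, Ccnd1, Bmf, Ncl, Hspa5, Fasn and Cybb. The dates in the file names put same-numbered monocyte and day 1 libraries in 1 experiment, and deviations from group means correlated between them at 0.276 (WT monocytes with day 1), 0.128 (KO monocytes with day 1), 0.236 (WT with KO monocytes) and 0.194 (WT with KO day 1), so the numbers pair the samples.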

Additional observations from a re-analysis of the deposited data

How the results depend on the processing

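RLE and upper-quartile scaling, unstranded counts and the replicate block by label number or by experiment each left both WT counts within 1.5 times, and so did DESeq2. With the replicate block the counts were 1887 higher and 1648 lower by number, and 2131 and 1861 by experiment, with 0 genes in the interaction both times. Beside the genes named above with a blocked value, the block by experiment changed no call among the 241 genes named, and the block by number ended that of Tlr7 (adjusted p = 0.0541) and added Ccr7. Fitting the 4 compared libraries alone gave 765 higher and 888 lower, and the 6 WT libraries gave 1063 higher. With the replicate block on the 4 compared libraries the counts were 1827 higher and 1848 lower. The cause was not tested. The counts ran from 804 to 2342 higher and from 594 to 1682 lower with 1 library left out. The interaction count of 0 stayed at 0 in those fits. It was 2 in DESeq2 and 115 without the low-count filter, all 115 among the genes tested above, and the cause was not tested. Leaving out both WT monocytes replicate 2 and KO day 1 replicate 1 gave 1386 higher and 1701 lower.

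Of 228 named genes past the threshold, 174 to 194 kept their call without 1 WT library, 210 in the compared groups alone and 226 or more in the other scalings, DESeq2 and the blocks on all libraries. No called gene changed direction in any fit. Uncalled genes near 0 did (log2 values). With unstranded counts Csf1r was at -0.001 and Stat5a at -0.0208, and with the replicate block on the compared groups Csf1r was at -0.0069. With 1 library left out, Csf1r ran from -0.28 to 0.34, Stat5a from -0.27 to 0.41, Csf2ra from -0.34 to 1.58 and Ccr2 from -0.35 to 0.29. Without those 2 libraries, Csf1r was at -0.19, Stat5a at -0.27, Csf2ra at -0.34 and Ccr2 at 0.29. Counts of 1 or 2 list members are not followed here.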
